A study of Mus musculus with 16 samples.

Results

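The effect of laser power on the RNA coverage of Dazl was followed at the higher of the Dazl levels, labelled 4.2x, by setting libraries made with a 2.6 mW laser against libraries made with a 1 mW laser. The 6 libraries compared form 3 pairs matched by crosslinking time, 30, 180 and 680 s, and belong to a series of 16 samples, of which 12 had a file that was analysed here. All groups came from a single clone of the mouse spermatogonial line GC-1 spg, in which doxycycline induces Dazl. The groups at 2.6 mW with 4.2x Dazl and the groups at 1 mW with 4.2x Dazl had 1 library at each time, as had the groups at 2.6 mW and at 1 mW with 1x Dazl that are used below for contrast. The 4 samples of 0 s were not analysed here, and values without crosslinking are therefore missing. Without replicates of a condition, the 3 times served as repeats of the comparison, and nothing in the labels says that they came from separate cultures.

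Dazl is an RNA-binding protein of germ cells that binds short elements built around GUU, is best known for sites near the 3′ ends of messenger RNAs, and is needed for germ cell development. In KIN-CLIP, a form of iCLIP, pulses of ultraviolet light join protein and RNA where they touch, and the RNA joined to Dazl is sequenced, so that the time course of crosslinking can be followed. The comparison of laser powers asks how the coverage of each RNA answers to the strength of the light.

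The deposited values are whole numbers of normalized coverage for each position. They were summed over 8338 regions, of which 6798 (81.5%) were 17 nt long, and over the regions within each of 3203 genes, of which 3166 are protein-coding and 1576 (49.2%) had a single region. The sum is called coverage below. It is no count of reads and its depth is unknown, so no counting error can be given. The gain of a gene is log2(coverage + 3) at 2.6 mW minus the same at 1 mW, averaged over the 3 pairs, which understates changes of low values.

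The values of the 2.6 mW libraries were tied to each other. Among regions with 10 or more at 680 s and 2.6 mW, 3318 of 7303 (45.4%) had exactly the same whole number at 30 s and at 680 s, and 0 of all 8338 regions were lower at 680 s than at 30 s. With 1 mW 171 of 6773 such regions had equal values and 607 regions were lower at 680 s. With 1 mW 4565 regions (54.7%) were also lower at 180 s than at 30 s. The tests below treat the libraries as independent, so their p-values can err in either direction.

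Only a small share of regions lay in sequence that was at hand, namely in the windows around RefSeq transcription starts or in RefSeq miRNA hairpins of GRCm38.p6, the assembly called mm10. Of 157 such regions 119 were 17 nt long, and read on the plus strand of the genome 59 of these (49.6%) held GTT, the DNA form of GUU, at exactly positions 8 to 10, the middle of the region. No other position held GTT in more than 3 of them, and none held AAC, its reverse complement, in the middle. Over all placements of a 17-nt window in the 32851 RefSeq promoter sequences, 1.20% hold GTT at those positions on the plus strand. The middle GTT stood on the plus strand for genes of both strands, in 26 of 54 regions (48.1%) in genes of the plus strand and in 12 of 23 regions (52.2%) in genes of the minus strand. In a minus-strand gene these letters would read AAC in the RNA. The following regions are shown because they have the highest and then the lowest gains among the 23 regions of 17 nt with sequence, an assigned gene and a mean coverage of at least 20. All are written on the plus strand of GRCm38.p6, with a GTT at positions 8 to 10 in capitals.
Vmp1, chr11:86584093-86584109: gactgctGTTgccatga
Atp6v0e, chr17:26676405-26676421: agcctctGTTgacactt
Zfp473, chr7:44748495-44748511: aaatggaGTTtccagca
Rnf135, chr11:80183859-80183875: cggggaaGTTagtagga
Pigf, chr17:87025311-87025327: ccgccgaagggaagggg
Snrnp35, chr5:124483159-124483175: ggtcggcgtgtggaatc
Triap1, chr5:115341232-115341248: tcagaatgcgtcgccgt
Dad1, chr14:54253895-54253911: cgtgcgcGTTagcgggc
Gm41396, chr15:98934482-98934498: gcgggcgcggtcgctgg
Wsb1, chr11:79243236-79243252: caattacGTTaacatta

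The first 5 of these regions gained between 1.69 and 2.42 and the last 5 between 0.42 and 0.73. The region in Vmp1, a gene of autophagy, lies inside the hairpin of Mir21a, which is transcribed from the same strand as Vmp1, and had 40, 32 and 40 at 30, 180 and 680 s with 2.6 mW, against 2, 1 and 18 with 1 mW. The region in Atp6v0e, a subunit of the vacuolar proton pump, had 22, 33 and 44 with 2.6 mW, against 1, 1 and 23 with 1 mW. In both, the libraries of 1 mW at 30 and 180 s were at or near the lowest listed value, which is 1. The region in Triap1, a regulator of apoptosis, had 43, 42 and 43 with 2.6 mW, against 41, 21 and 34 with 1 mW. That in Dad1, a subunit of the oligosaccharyltransferase, had 40 at each time with 2.6 mW, against 34, 21 and 29 with 1 mW. Over the 17-nt regions with a mean coverage of at least 10, the median gain was 1.17 (quartiles 0.90 and 1.54) in 44 with the middle GTT and 1.01 (quartiles 0.81 and 1.33) in 44 without it, and these ranges overlap.

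Total coverage was higher at 2.6 mW at every time. At 30 s it was 173943 with 2.6 mW and 74552 with 1 mW, a ratio of 2.33. At 180 s it was 185659 with 2.6 mW and 48334 with 1 mW, a ratio of 3.84. At 680 s it was 252932 with 2.6 mW and 153860 with 1 mW, a ratio of 1.64. The mean log2 ratio was 1.29 ± 0.62 (SD, n = 3 pairs), or 2.45-fold, with a two-sided exact sign-flip p of 0.25, the smallest that 3 pairs allow. The ratio was highest at 180 s, where the 1 mW library held less than at 30 s. At the 3 times the listed length was 1.73, 2.51 and 1.27 times as large at 2.6 mW and the mean value of a listed position 1.35, 1.53 and 1.30 times, so both the number of covered positions and their height were larger at 2.6 mW.

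**Figure D1:**
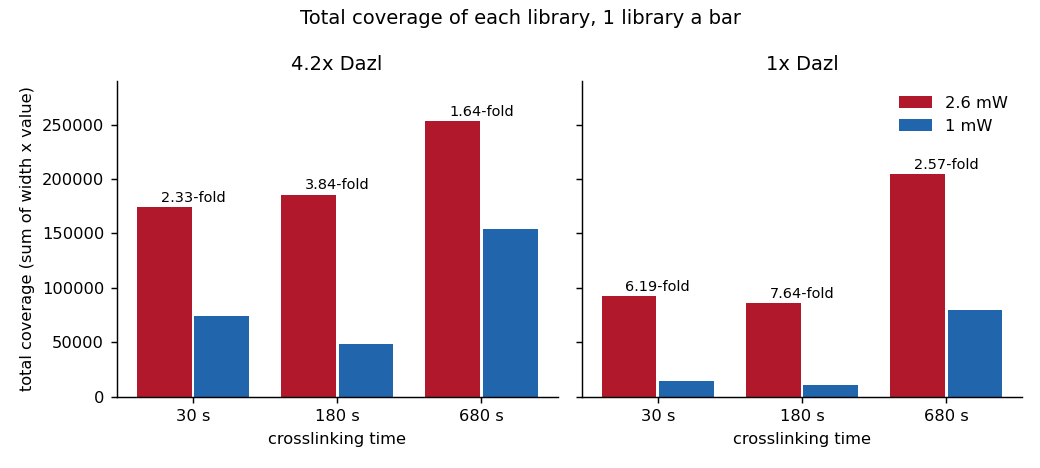
Total coverage of the 12 libraries, by crosslinking time, with 4.2x Dazl on the left and 1x Dazl on the right. Each bar is 1 library, 2.6 mW in red and 1 mW in blue, with the ratio of 2.6 over 1 mW above each pair, which is smallest at 680 s at both Dazl levels.

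The ratio of total coverage at 4.2x Dazl was smaller than at 1x Dazl at each time. At 4.2x Dazl the ratios were those given above, and at 1x Dazl they were 6.19, 7.64 and 2.57 at 30, 180 and 680 s. The log2 ratio at 4.2x minus that at 1x averaged -1.01 ± 0.38 (SD, n = 3 times), with an exact sign-flip p of 0.25, again the lowest that can be reached. The median gain over genes was 0.94, 1.58 and 0.63 at 4.2x Dazl, against 1.32, 1.58 and 1.14 at 1x Dazl, equal at 180 s. The gain adds 3 to each value, and 80.5% of regions stood at the lowest value with 1 mW at 180 s and 1x Dazl. Without that addition, the median ratio of a region was 2.38, 3.6 and 1.6 at 4.2x Dazl. At 1x Dazl it was 5, 6 and 2.43, larger at each time. The 30 s library at 2.6 mW, with 78 mJ of laser power times time, also held more than the 680 s library at 1 mW, with 680 mJ. At 4.2x Dazl its total was 1.13 times as high, and 1836 of 3203 genes (57.3%) were higher in it and 1203 (37.6%) lower. At 1x Dazl its total was 1.16 times as high, with 1487 genes (46.4%) higher and 1362 (42.5%) lower.

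Genes followed the totals. At 30 s 2808 of 3203 genes (87.7%) had more coverage with 2.6 mW and 167 (5.21%) had less. At 180 s 3095 (96.6%) were higher and 2 (0.0624%) lower, and at 680 s 3202 (100% after rounding) were higher and 0 lower. The lowest value of a region at 680 s was itself 3 with 2.6 mW, against 2 with 1 mW. A region at the lowest value in both libraries thus counts as higher, and 414 genes held only regions at the lowest value of the 2.6 mW library. In all 3 pairs 2798 genes (87.4%) were higher. The distance between the quartiles of the gain was 0.91, 0.91 and 0.33, so at 680 s genes lay closest together. Single regions showed the same narrowing, with 473 regions lower at 2.6 mW at 30 s, 2 at 180 s and 0 at 680 s, where no region was more than 2.57 times as high.

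At 2.6 mW genes held most of their 680 s coverage after 30 s. Over the 1670 genes with a mean coverage of at least 20, the median gene had 73.9% of its own 680 s value at 30 s and 78.0% at 180 s with 2.6 mW, against 51.2% and 33.3% with 1 mW. At 1 mW the share was thus lower at 180 s than at 30 s. The 10th and 90th percentiles were 44.0% and 100% at 30 s with 2.6 mW, against 22.2% and 84.3% with 1 mW.

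Tested with limma over the 3 pairs, 2375 genes (74.1% of those tested) were higher at 2.6 mW and 0 lower, with 2483 and 0 at an unadjusted p under 0.05 and a median gain of 1.06. These p-values rest on a spread pooled over the genes of the same 6 libraries, and the count was 0 without the 180 s pair and 0 without time as a block. It was 135 without the 30 s pair and 424 without the 680 s pair. The 2375 calls include 272 of the 504 genes with under 10 at 680 s and 2.6 mW. Of those 504 genes, 408 held only regions at the lowest value of that library, which was 3, against 2 with 1 mW.

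The RNAs with the highest coverage all gained by close to the same amount. Neat1, the nuclear RNA on which paraspeckles form, had 1308, 1469 and 1996 at 30, 180 and 680 s with 2.6 mW, against 584, 383 and 1206 with 1 mW. Malat1, a nuclear speckle RNA and its neighbour on chromosome 19, had 1101, 1256 and 1999 with 2.6 mW, against 440, 273 and 1243 with 1 mW. In both RNAs each 2.6 mW library stood above the 1 mW library of its time, and with 1 mW the 180 s library was the lowest. Thbs1, the matrix glycoprotein thrombospondin 1, had 1222, 1268 and 1593 with 2.6 mW, against 515, 318 and 1004 with 1 mW. Col1a1, which encodes a type I collagen chain, had 1082, 1146 and 1560 with 2.6 mW, against 488, 338 and 963 with 1 mW. These transcripts carried the same dip at 180 s. The other 4 were Scd2, a fatty acid desaturase, Timp2, an inhibitor of matrix metalloproteinases, Canx, a lectin chaperone of the endoplasmic reticulum, and Pdia3, its disulfide isomerase partner.

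The gains of these 8 genes lay between 1.20 ± 0.46 (SE) in Col1a1 and 1.40 ± 0.46 in Malat1, with limma adjusted p between 0.00756 and 0.0177. After each library was centred on its median over genes, Malat1 gained 0.30 ± 0.11 (limma adjusted p = 0.0441) and Neat1 0.17 ± 0.11 (adjusted p = 0.24). The difference between Malat1 and Neat1 was not tested. Against genes of like 680 s coverage, a comparison described below, Malat1 departed by 0.14 ± 0.05 (limma adjusted p = 0.273). Single regions of the 8 genes varied far more than the sums. The 62 regions of Neat1 gained between -0.42 and 2.39 at 30 s, where 53 were higher, 4 equal and 5 lower at 2.6 mW, and between 0.28 and 1.10 at 680 s, where all 62 were higher. Canx, with 22 regions, ran between -1.37 and 3.32 at 30 s and between 0.32 and 1.14 at 680 s. Over the 476 genes with at least 2 regions of a mean coverage of 20 or more, the SD of the gain among regions of the same gene was 0.39, and over all 1600 of those regions together it was also 0.39.

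**Figure D2:**
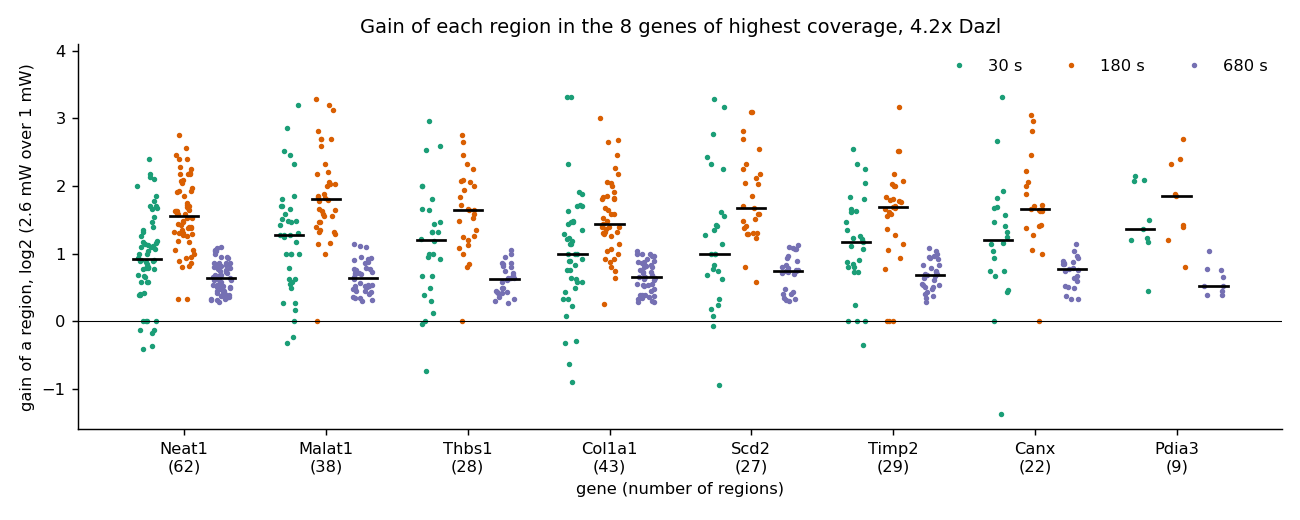
Gain of each region (log2, 2.6 mW over 1 mW, vertical axis) in the 8 genes of highest coverage, with the number of regions under each name. Each point is 1 region, colours are the 30, 180 and 680 s pairs, and black bars are medians. At 30 s regions of 1 gene run from below 0 to above 3 in Malat1, Col1a1, Scd2 and Canx, and at 680 s all lie between 0.26 and 1.14.

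How far genes departed from the median gene was tested after each library was centred on its median of log2(coverage + 3) over genes. The reference is thus the difference between library medians and not the median of the gains. The median departure was -0.04, and 1484 of 3203 genes departed upward. By limma, 218 genes (6.81%) gained more than the median gene and 394 (12.3%) gained less, 612 (19.1%) in all. Genes called above it had a median coverage of 42.5, 46 and 71 at 30, 180 and 680 s with 2.6 mW, against 6, 6 and 43 with 1 mW. Their median gains were 2.18, 2.46 and 0.77 at the 3 times. Of the 394 genes called below it, 219 (55.6%) held only regions at the lowest value of the 680 s library at 2.6 mW, and 297 (75.4%) had a mean coverage under 10. Their median coverages were 2, 2 and 6 with 2.6 mW, against 1, 1 and 4 with 1 mW. Both counts were 0 with a pseudocount of 1, with a minimum mean coverage of 10, without regions at the lowest value, without time as a block and with libraries scaled by their totals. They were 9 and 1 without the 30 s pair, 3 and 8 without the 180 s pair, and 361 and 790 without the 680 s pair.

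The 8 largest departures above the median gene, among genes with a mean coverage of at least 20 that passed the test and departed the same way in all pairs, belonged to genes of 1 to 3 regions. Hdlbp encodes vigilin, an RNA-binding protein with many KH domains, and its region at chr1:93408053-93408069 had 37, 30 and 37 with 2.6 mW, against 1, 1 and 16 with 1 mW. Sdf2l1, a stress-induced protein of the endoplasmic reticulum, had 42, 49 and 70 with 2.6 mW, against 2, 2 and 40 with 1 mW. Nat10, an RNA acetyltransferase, had 39, 47 and 68 with 2.6 mW, against 2, 2 and 36 with 1 mW. In these genes the 1 mW libraries of 30 and 180 s stood at the lowest listed value for each region, while that of 680 s stood above it, and every 2.6 mW library but 1 (Hdlbp at 180 s) was at or above 37. Arhgef10, a guanine nucleotide exchange factor, had 25, 37 and 64 with 2.6 mW, against 2, 1 and 26 with 1 mW. Kpnb1, the nuclear import receptor importin beta 1, had 123, 109 and 149 over 3 regions with 2.6 mW, against 14, 12 and 75 with 1 mW. Of the regions of Kpnb1, 1 had 2 and 1 at 30 and 180 s with 1 mW, at or near the lowest value, and the others had 3 to 8.

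The departures of these genes from the median gene were 1.38 ± 0.26 for Hdlbp (SE, limma adjusted p = 0.00125), 1.34 ± 0.29 for Sdf2l1, 1.32 ± 0.25 for Nat10, 1.24 ± 0.24 for Arhgef10 and 1.15 ± 0.20 for Kpnb1 (adjusted p = 0.00285). Zfp775, a zinc finger gene, departed by 1.22 ± 0.28 and the ribosomal protein gene Rpl4 by 1.17 ± 0.27, and both regions of Rpl4 also lie in another gene. H4c8, a histone H4 gene with near-identical copies, departed by 1.15 ± 0.26, and reads could be split among the copies. In single pairs the departures were 1.36 to 2.22 at 30 and 180 s and 0.02 to 0.55 at 680 s. Without the 180 s pair 7 of the 8, all but Kpnb1, no longer passed the test, and without the 30 s pair Hdlbp, Zfp775 and Rpl4 did not, with 0.76 for Zfp775 and 0.77 for Rpl4.

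**Figure D3:**
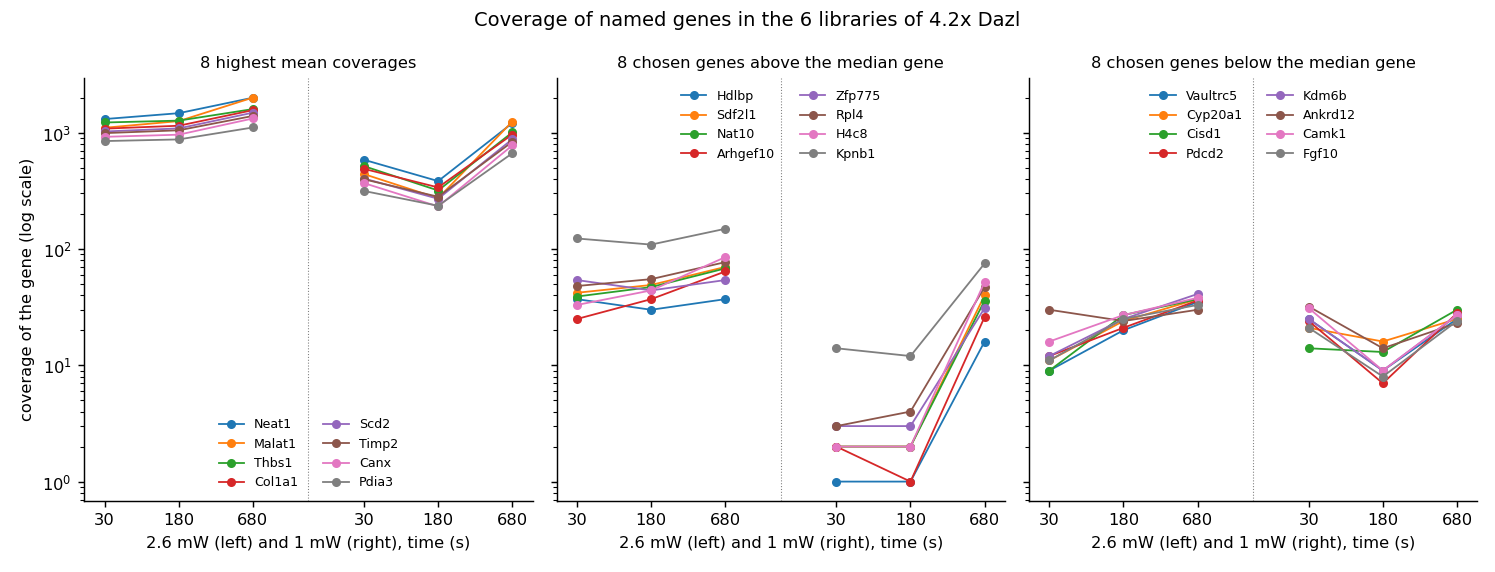
Coverage (log axis) of named genes in the 6 libraries of 4.2x Dazl, with the 3 times at 2.6 mW left of the dotted line and the 3 times at 1 mW right of it. Each line is 1 gene. The 8 highest genes move together, the 8 genes chosen above the median gene have 14 or less at 1 mW at 30 and 180 s, and the 8 chosen below it have 30 s values at 2.6 mW no higher than 30.

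The 8 largest departures below the median gene, chosen in the same way, belonged to genes with 1 region each. Cyp20a1, a cytochrome P450, had 11, 24 and 37 with 2.6 mW, against 21, 16 and 25 with 1 mW. Cisd1, an iron-sulfur protein of the outer mitochondrial membrane, had 9, 27 and 37 with 2.6 mW, against 14, 13 and 30 with 1 mW. Kdm6b, a demethylase of lysine 27 of histone H3, had 12, 25 and 41 with 2.6 mW, against 25, 9 and 27 with 1 mW. In each the 30 s library was lower at 2.6 mW and the 180 and 680 s libraries were higher. The growth factor gene Fgf10 had 11, 25 and 33 with 2.6 mW, against 21, 8 and 24 with 1 mW, and the kinase gene Camk1 had 16, 27 and 38 with 2.6 mW, against 31, 9 and 27 with 1 mW. Ankrd12, an ankyrin repeat gene, had 30, 24 and 30 with 2.6 mW, against 32, 14 and 23 with 1 mW. All 8 were lower at 2.6 mW in the 30 s pair.

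Their departures from the median gene lay between -1.05 ± 0.30 (SE, limma adjusted p = 0.0234) in Vaultrc5, a vault RNA, and -0.77 ± 0.25 (adjusted p = 0.032) in Fgf10. Cyp20a1 departed by -1.02 ± 0.23 (adjusted p = 0.00623), Cisd1 by -0.87 ± 0.22 (adjusted p = 0.008) and Pdcd2, which assists ribosome assembly, by -0.85 ± 0.25 (adjusted p = 0.0218). On values as deposited none of the 8 passed the test for a gain, with gains of 0.05 to 0.33. Other genes with a mean coverage of at least 20 gained as little without passing the test against the median gene, among them Acadm with 0.02, Tab2 with 0.13 and Tuft1 with 0.27, whose values are given further on. Without the 30 s pair the departures of the 8 lay between -0.59 and -0.21, with -0.59 for Cyp20a1, -0.41 for Vaultrc5, -0.30 for Pdcd2 and -0.22 for Fgf10, and 0 passed the test. Without the 180 s pair 0 passed it either, at -1.27 to -0.75.

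Lower values at 30 s were not limited to those genes. The 167 genes that were lower at 2.6 mW at 30 s had median coverages of 7, 15 and 26 at 30, 180 and 680 s with 2.6 mW, against 12, 5 and 17 with 1 mW. Of these, 161 were higher at 180 s and 167 at 680 s, beside 96.6% and 100% of all genes. A single region was held by 128 of them, beside 49.2% of all genes. A mean coverage of at least 20 was reached by 49 of them, and by 1670 of all 3203 genes. At 1x Dazl 55 genes were lower at 2.6 mW at 30 s. The lists shared 7 genes. They are 4.19% of the list at 4.2x, beside the 1.72% of all genes that are in the list at 1x. They are 12.7% of the list at 1x, beside the 5.21% of all genes that are in the list at 4.2x. No test was made of this overlap.

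Another set of regions was picked out because they stood at the lowest listed value at the shorter times. At 30 and 180 s 323 regions had a coverage of exactly 1 with both laser powers, and 215 of them had at least 10 at 680 s with 2.6 mW, 2.94% of the 7303 regions with that much. At 680 s these 215 had a median of 27 (range 10 to 54) with 2.6 mW, against 16 (range 4 to 39) with 1 mW. At 1x Dazl their medians were 1 at 30 s and 1 at 180 s with either power, and 22 at 680 s with 2.6 mW against 8 with 1 mW. They lay in 193 genes, of which 48 had no other region. The highest, named after their values were seen, were in Slc38a2, an amino acid transporter gene, with 54 at 680 s with 2.6 mW and 30 with 1 mW, and in Celf1, a gene of an RNA-binding protein that binds GU-rich elements, with 52 at 2.6 mW and 39 at 1 mW. Malat1 held another such region, with 51 at 2.6 mW and 35 at 1 mW. By the way the set was chosen, the powers differ in it at 680 s alone.

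The median gain was larger in bands of higher coverage, and from a coverage of 10 upward its spread among genes was narrower. Among the 504 genes with under 10 at 680 s and 2.6 mW, of which 408 held only regions at the lowest value, the gain at 30 s ran from 0 (10th percentile) to 0.58 (90th percentile), with a median of 0.26. Among the 1423 genes with 10 to under 50 it ran from 0 to 1.87 with a median of 0.90. Among the 647 genes with 50 to under 100 it ran from 0.38 to 2.13 with a median of 1.14, and among the 65 genes with 400 or more from 1.02 to 1.45 with a median of 1.26. Across all 3203 genes the gain and the 680 s coverage at 2.6 mW had a Spearman correlation of 0.61, and across the 1670 genes with a mean coverage of at least 20 a Spearman correlation of 0.30. The libraries share their genes and the 680 s library is part of both measures, so these are descriptions.

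**Figure D4:**
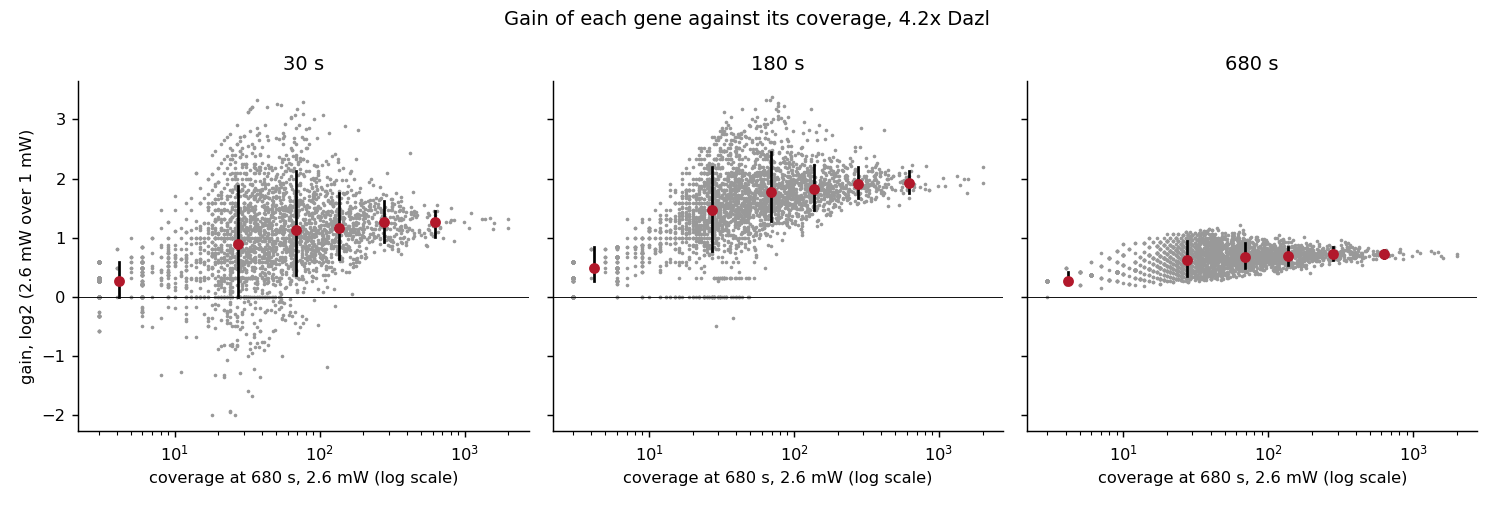
Gain of each of 3203 genes (log2, 2.6 mW over 1 mW) against its coverage at 680 s and 2.6 mW (log axis), for the 30, 180 and 680 s pairs at 4.2x Dazl. Red points are medians of 6 coverage bands and black lines run from the 10th to the 90th percentile. From the second band on the lines shorten toward high coverage, the first line is shorter than the second, and in each band the line is shortest at 680 s.

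Extremes of the gain at 30 and 180 s differed by coverage band. Between 50 and 100 at 680 s and 2.6 mW, Ppp1ca, a catalytic subunit of protein phosphatase 1, had 56, 55 and 77 with 2.6 mW, against 3, 3 and 52 with 1 mW, and Tuft1, the tuftelin gene, had 10, 28 and 55 with 2.6 mW, against 23, 12 and 31 with 1 mW. Between 200 and 400, Icmt, which methylates prenylated proteins, had 176, 177 and 292 in a single region with 2.6 mW, against 39, 22 and 175 with 1 mW. At 400 and over, the growth arrest gene Gas1 had 186, 229 and 418 over 13 regions with 2.6 mW, against 32, 30 and 237 with 1 mW, and Tmbim6, a membrane protein that limits apoptosis, had 307, 322 and 442 over 11 regions with 2.6 mW, against 153, 109 and 305 with 1 mW. Gas1 and Tmbim6 were both higher at 2.6 mW in every pair, and Gas1 had the larger ratio at each time.

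Against the 100 genes nearest in 680 s coverage, limma called 0 genes above and 0 below, with 231 and 319 of 3203 at an unadjusted p under 0.05. Among genes with a mean coverage of at least 20 and 1 sign in all pairs, the largest departures above were those of genes already named, 1.35 ± 0.31 (SE) for Hdlbp and 1.27 ± 0.29 for Arhgef10, each with a limma adjusted p of 0.238. On the low side of the same genes the largest was that of Acadm, a dehydrogenase of medium-chain fatty acids, which departed by -1.23, with 8, 25 and 34 with 2.6 mW against 32, 9 and 23 with 1 mW. Tab2, an adaptor of the kinase TAK1, departed by -1.05, with 11, 28 and 112 over 3 regions with 2.6 mW against 29, 11 and 82 with 1 mW. In both, the 30 s library was lower at 2.6 mW and the later ones higher. Without time as a block, 69 genes were called above and 104 below their matched genes.

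Departures from matched genes had a narrower spread among genes with more regions. In the 6 coverage bands, low to high, genes had a median of 1, 1, 2, 4, 7 and 13 regions. Number of regions and coverage therefore cannot be told apart here. Among genes with a mean coverage of at least 20, the 10th and 90th percentiles were -0.57 and 0.45 for the 302 genes with 1 region, -0.41 and 0.49 for the 811 genes with 2 to 3, -0.24 and 0.26 for the 476 genes with 4 to 9, and -0.15 and 0.17 for the 81 genes with 10 or more. Across the 1670 genes, the departure had a Spearman correlation of 0.09 with the number of regions, -0.05 with the length of the gene span and -0.10 with the median distance of regions to the nearer end of the span. The gain at 4.2x Dazl had a Spearman correlation of 0.17 with the gain at 1x Dazl over these genes, and of 0.56 over all 3203 genes, which include those at the lowest values.

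Gene groups were read from lists chosen with earlier results of these data known, and in each the count called against the 1 mW libraries is to be read beside 74.1% of all genes and a median gain of 1.06. Of 23 genes of folding and quality control in the endoplasmic reticulum 22 were higher at 2.6 mW, with a median gain of 1.40. Of 33 SR and hnRNP splicing factors 30 were higher, with a median of 1.29, and of 42 genes of the cytoskeleton and adhesion 39, with a median of 1.25. Of 37 genes of vesicle traffic 32 were higher (median 1.33), of 30 matrix genes 24 (1.26) and of 22 ribosomal protein genes 19 (1.28). The lists held genes of higher coverage than the whole, with a median of 124 at 680 s and 2.6 mW for the folding genes and of 38 for all genes. The share of genes called was larger at higher coverage, at 54.0% below 10 at 680 s and 2.6 mW, 66.4% from 10 to under 50, 85.5% from 50 to under 100, 93.9% from 100 to under 200, and 100% in the bands from 200 to under 400 and from 400 on.

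Among the folding genes 5 gained more than the median gene and 1 less, against 6.81% and 12.3% of all genes. These shares also differed by coverage. In the same 6 bands, low to high, 0%, 4.22%, 13.4%, 10.2%, 13.3% and 12.3% of genes gained more, and 47.6%, 9.56%, 2.47%, 0.512%, 0% and 0% gained less. Serpinh1, the collagen chaperone, had 608, 660 and 808 with 2.6 mW, against 246, 140 and 461 with 1 mW, and departed by 0.34 ± 0.12 (SE, limma adjusted p = 0.0366). Pdia4 and Pdia6, both disulfide isomerases, departed by 0.48 and 0.43, the stress factor gene Atf4 by 0.70 and Sdf2l1 by 1.34. Edem1, which takes misfolded glycoproteins to degradation, departed by -0.69, with 19 at each time with 2.6 mW against 18, 9 and 15 with 1 mW. Relative to genes matched on coverage the median departure of the 23 genes was 0.18, with 0 called.

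Among the genes of the cytoskeleton and adhesion 8 of 42 gained more than the median gene and 0 less. These counts stand beside 6.81% and 12.3% of all genes. The list's median was 100.5 at 680 s and 2.6 mW. In the coverage bands from 50 upward, low to high, 13.4%, 10.2%, 13.3% and 12.3% of genes gained more. In the same bands 2.47%, 0.512%, 0% and 0% gained less. The 8 were Cfl1, Tubb5, Rhoc, Flna, Pfn1, Tpm1, Rac1 and Cnn3, with departures of 0.42 to 0.85. Tpm1, a tropomyosin, had 133, 131 and 165 with 2.6 mW, against 28, 16 and 109 with 1 mW, and every 2.6 mW value exceeded every 1 mW value. The integrin Itgb1, the highest of the list, had 587, 668 and 849 with 2.6 mW, against 305, 190 and 546 with 1 mW, and departed by 0.02 (adjusted p = 0.915). The median departure of the 42 genes from matched genes was -0.0035.

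Among the 22 ribosomal protein genes 5 gained more than the median gene and 3 less, to be read, as the counts that follow, beside the same shares of all genes and of the coverage bands. Rpl8 had 65, 65 and 116 with 2.6 mW, against 7, 7 and 64 with 1 mW, and departed by 1.02. Rpl34 had 36, 29 and 36 with 2.6 mW, against 30, 16 and 25 with 1 mW, and departed by -0.61. Members of this list stood on both sides of the median gene. Among the called genes, 3 of the 4 regions of Rpl3, 2 of 3 of Rpl7a and both of Rpl4 also lie in another gene. So do 1 of the 2 regions of Rps3a1 and the 1 region of Rpl37, but none of Rpl8, Rpl7l1 and Rpl34. Rps3a1 was near the lowest values, with 2, 3 and 6 with 2.6 mW against 3, 2 and 4 with 1 mW. Among 19 cytoplasmic regulators of RNA, Larp1, which controls the translation of ribosomal protein messages, departed by 0.71, while Pabpc1, the cytoplasmic poly(A)-binding protein and a known partner of Dazl, departed by -0.58, with 48, 49 and 62 with 2.6 mW against 49, 20 and 46 with 1 mW. Of this list 14 were higher at 2.6 mW as deposited, 3 gained more than the median gene and 2 less. Of 21 genes of decay and poly(A) control 18 were higher, 2 gained more and 2 less. Xrn1, the cytoplasmic 5′ exonuclease, departed by 0.90, with 27, 23 and 27 with 2.6 mW against 1, 1 and 20 with 1 mW. Xrn2, its nuclear counterpart, departed by -0.83, with 1, 1 and 32 with 2.6 mW against 1, 1 and 17 with 1 mW. At 30 and 180 s Xrn2 thus stood at the lowest listed value with both powers, and Xrn1 with 1 mW. Of 6 histone genes 3 gained more, the near-identical H4 genes H4c2, H4c8 and H4c11, and 1 less, H1f7, which stood at the lowest value in every library.

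Of the matrix genes 4 gained more than the median gene and 1 less, of the genes of vesicle traffic 5 and 1, and of the splicing factors 3 and 0. Of 14 genes of lipid synthesis 13 were higher at 2.6 mW, with 2 that gained more than the median gene and 0 less. Of 13 cell cycle genes 12 were higher, with 3 and 0, of 19 translation factors 15 were higher, with 1 and 1, and of 16 nuclear-encoded respiratory genes 13 were higher, with 2 and 0. Of 14 immediate early and stress genes 11 were higher, with 0 that gained more and 1 less, and of 9 nuclear and structured noncoding RNAs 8 were higher, with 2 and 0. The median gains of the 6 lists from lipid synthesis onward lay between 1.13 and 1.26.

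Cell type markers gave only a limited check of the cells. Of 12 germ cell markers, Mov10l1, Rhox13 and Sall4 had a region each, none above 4 in any of the 6 libraries, and Ddx4 and Dazl had none. Of 7 Sertoli cell markers Wt1 had 23, 25 and 31 with 2.6 mW, against 2, 2 and 21 with 1 mW, and Dhh had 26, 21 and 35 with 2.6 mW, against 2, 3 and 21 with 1 mW. Of 7 peritubular and fibroblast markers Col1a1, Pdgfra, Acta2 and Vim had regions, and Pdgfra had 33, 36 and 69 with 2.6 mW, against 2, 2 and 42 with 1 mW. Vim had 33, 32 and 33 with 2.6 mW, against 17, 13 and 26 with 1 mW, and Acta2 had 32, 31 and 32 with 2.6 mW, against 14, 11 and 22 with 1 mW. Pdgfra departed from the median gene by 1.06 (limma adjusted p = 0.00623), and Vim by -0.34 and Acta2 by -0.16, which did not pass the test. The endothelial receptor Kdr had 12 or less in each library, and no Leydig cell or macrophage marker had a region. Which regions are listed rests on the authors' selection, so an unlisted RNA is not shown to be unbound.

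One gene had a gain that differed between Dazl levels by the interaction test, which called 0 genes with a larger gain at 4.2x than at 1x and 1 (0.0312%) with a smaller one, with 296 and 376 at an unadjusted p under 0.05. Lrrc28, a leucine-rich repeat gene, had 83 at each time with 2.6 mW at 4.2x Dazl, against 41, 33 and 53 with 1 mW. At 1x Dazl it had 51, 69 and 80 with 2.6 mW, against 1, 1 and 11 with 1 mW. The gain at 4.2x minus that at 1x, each relative to the median gene, was -2.27 ± 0.37 (SE, limma adjusted p = 0.0209). Its region at chr7:67531765-67531781 also lies in another gene. The call was absent when regions in several genes were left out, and without the 30 s or the 180 s pair. Without the 680 s pair the counts were 440 and 648.

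**Figure D5:**
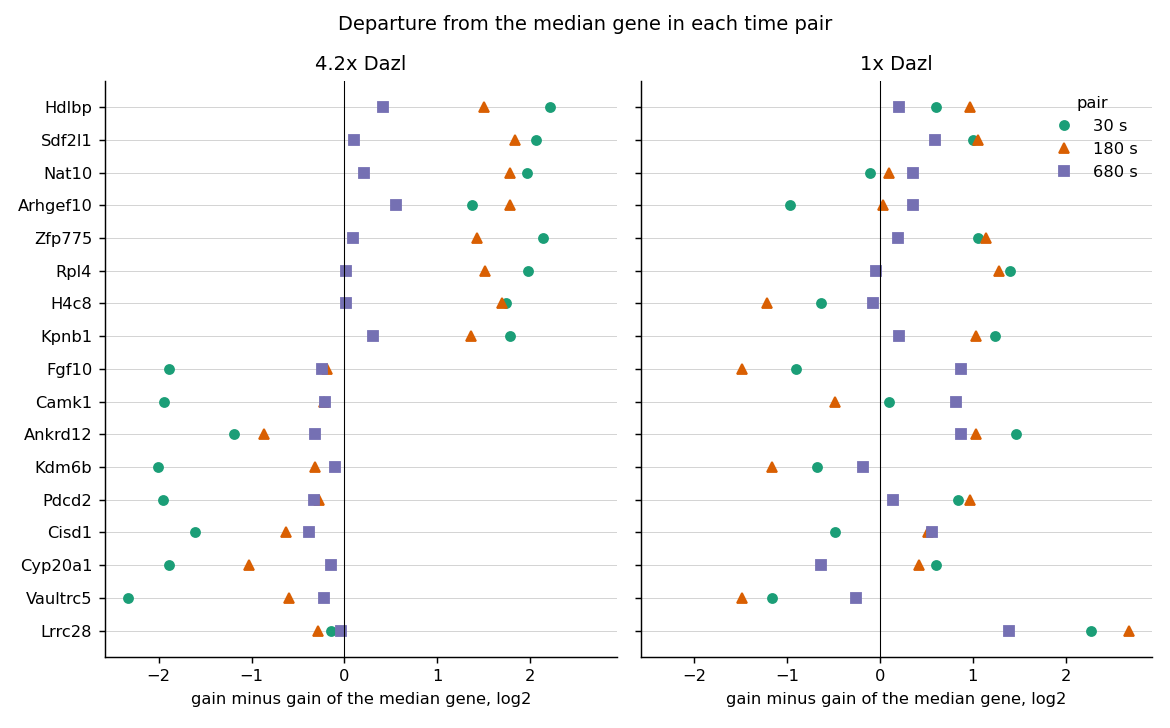
Departure from the median gene in each time pair, with 4.2x Dazl on the left and 1x Dazl on the right. It is the gain minus the difference between the medians of the paired libraries (log2, horizontal axis). Shown are the 8 genes chosen above and the 8 chosen below the median gene, and Lrrc28. Points are the 30, 180 and 680 s pairs, 1 library at each power. The genes were chosen on the left panel, and on the right H4c8, Pdcd2 and Ankrd12 lie on the opposite side of 0 in all 3 pairs.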

How the data were processed

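The authors deposited, for each library, intervals with a score that they call normalized coverage, in whole numbers and without strand. The submitters' processing notes name FastQC, Bowtie2 and mm10. Normalization, site selection and tool versions are not stated in the sources used. Depth in reads is unknown.

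Intervals of all 12 files at most 10 nt apart were joined into regions, whose value is the sum of width times score. Regions in 1 gene span of the RefSeq table of GRCm38.p6 (7593), or in 1 protein-coding gene among several (245), were summed per gene. Another 314 lay in several genes and 186 in none, and exons were not annotated.

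R 4.3.3 with limma 3.58.1 fitted log2(value + 3) with time as a block and eBayes trend and robust settings. Benjamini-Hochberg adjustment was over all genes at 0.05. The model was fitted to values as deposited and to values centred on each library's median gene. It was also fitted to departures from the 100 genes nearest in mean log2 680 s coverage of both powers. These fits of 6 libraries left 2 residual degrees of freedom. A fit of all 12 libraries with an interaction left more. Named are the 8 highest genes, the 8 (median gene, called) or 6 (matched genes, none called) largest departures each way with a mean of at least 20 and 1 sign in all pairs, members of lists that were highest or called, markers, and extremes of coverage bands. The fit was also run on simulated libraries with independent noise. These lacked the ties between libraries described above, so that run cannot vouch for the p-values given here. The members and lists were chosen with earlier results of these data known. Alternatives changed the pseudocount, filters, joining, gene assignment, block, scaling and matching, or left out a pair.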

Additional observations from a re-analysis of the deposited data

Results flagged for a closer look

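Lrrc28 was singled out because its gain differed between Dazl levels in the interaction test, by -2.27 ± 0.37 (SE, 4.2x minus 1x, limma adjusted p = 0.0209), with 83 in every 2.6 mW library at 4.2x Dazl. H4c8, Pdcd2 and Ankrd12 were singled out because their gain departed from the median gene in opposite directions at the Dazl levels in all 3 pairs, a difference that did not pass the interaction test. The gain at 4.2x minus that at 1x was 1.80 ± 0.45 for H4c8 (adjusted p = 0.0825), -1.50 ± 0.43 for Pdcd2 (adjusted p = 0.107) and -1.92 ± 0.36 for Ankrd12 (adjusted p = 0.0551). At 1x Dazl H4c8 had 6, 3 and 81 at 30, 180 and 680 s with 2.6 mW, against 2, 2 and 36 with 1 mW. Ankrd12 had 28, 20 and 26 with 2.6 mW at 1x Dazl, against 1, 1 and 4 with 1 mW, and Pdcd2 had 17, 19 and 32 with 2.6 mW, against 1, 1 and 11 with 1 mW. These genes had been chosen for their departure at 4.2x Dazl. Near-identical H4 copies could share the reads of H4c8, whose part was not tested.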

How the results depend on the processing

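The log2 ratio of totals was 0.97 to 1.58 when a pair was left out, which could not reverse its direction because every pair was higher at 2.6 mW. It was 1.30 without regions at the lowest value and 1.29 with only regions assigned to a gene. The median gain of genes lay between 0.79 and 1.27. Counts of genes depended on the settings. Genes higher at 2.6 mW numbered 2375, 0 to 424 with a pair left out and 0 without time as a block. Genes that gained more and less than the median gene numbered 218 and 394. Both were 0 with a pseudocount of 1, with a minimum mean of 10, without regions at the lowest value, without time as a block and with libraries scaled by total. They were 329 and 788 with a pseudocount of 10, and ran over 3 to 361 and 1 to 790 with a pair left out. Those gaining more were 33 without trend or robust settings and 39 with 12 libraries. Departures from matched genes were 0 and 0, and 69 and 104 without the block. Genes with a larger and a smaller gain at 4.2x than at 1x Dazl numbered 0 and 1. They were 1 and 2 with a pseudocount of 10, and 0 to 440 and 0 to 648 with a pair left out. The smaller ones were 0 with only regions in 1 gene, and 0 without trend or robust settings. The 16 genes named for their departure from the median gene lost their adjusted p under 0.05 in 126 of 207 fits, and their sign was fixed in part by the choice. Without the 30 s pair the 8 below departed by -0.59 to -0.21, against -1.05 to -0.77 with it, and Kdm6b and Camk1 by -0.21 each. The cause of these changes was not tested. Where a pair was left out, 1 residual degree of freedom remained in the fits of 4.2x Dazl alone, and more in the interaction fit. No paired analysis by replicate number was possible because each condition has 1 library, so time served as the pairing. Depth is unknown, and whole values near 1 limit the ratios of low genes.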
